A study of Homo sapiens with 14 samples.

Results

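The genes described here are 34 genes of glycolysis and of the transcriptional response to low oxygen, measured in the established cell line PANC-1, which derives from a human carcinoma of the pancreas. They were chosen by name, with earlier results of these data known. Of them, 22 genes carry glucose to lactate or steer that route, and 12 are other known targets of the hypoxia-inducible factors (HIFs). For each gene, probe sets that the probe table assigns to exactly 1 gene were taken, and the brightest of these by its mean over the 14 arrays stands for the gene. This gave values for 33 of the 34 genes, out of 18129 genes in all, and 32 of them were bright enough to be tested. SLC16A3, the plasma membrane exporter of lactate, was not analysed here, because 0 probe sets named it alone.

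All cells were grown in 10% serum, kept for 24 h in 1% serum and then cultured for 48 h under 1 of 4 conditions. The control group (4 arrays) had no added agent. The second group (4 arrays) received TGFb1, a cytokine known to drive epithelial cells towards mesenchymal traits, at 5 ng/ml. The acriflavine group (3 arrays) received TGFb1 at 5 ng/ml and acriflavine at 2.5 µM. The valproate group (3 arrays) received TGFb1 at 5 ng/ml and sodium valproate at 2 mM. Acriflavine, an antiseptic made of related acridine dyes, inserts into nucleic acids and is also known to block the pairing of HIF subunits. Valproate is known as an anticonvulsant that inhibits histone deacetylases. Acriflavine without TGFb1 was not analysed here, so neither compound can be read apart from the cytokine. No group was labelled as grown in low oxygen, and all 4 groups come from 1 cell line. The labels call the replicates biological, and p-values measure only the spread between them.

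HIFs are transcription factors made of an oxygen-regulated alpha subunit and the partner ARNT. In well oxygenated cells prolyl hydroxylases (EGLN proteins) mark the alpha subunit for destruction by a ligase that contains VHL. When oxygen falls, the pair binds a short core motif called the hypoxia response element. Its known targets include glucose transporters, most glycolytic enzymes, PDK1, which diverts pyruvate from mitochondria, and secreted factors such as VEGFA. Many pancreatic carcinomas are known to lie in poorly perfused tissue and to use glucose heavily.

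The promoters of 5 members, picked after their values were seen, are shown as examples of different results with acriflavine against TGFb1 alone. ANGPTL4 and ENO1 fell, BNIP3 rose, and PGK1 and GAPDH did not pass the test. Each sequence holds the 250 bases before the annotated start in RefSeq (GRCh38.p14), read 5′ to 3′ on the strand of the gene. Capitals mark the core of the hypoxia response element, ACGTG or GCGTG, or its reverse complement (CACGT or CACGC). The palindrome CACGTG counts as 2 overlapping matches.
ANGPTL4 (chr19:8363905-8364154, plus strand): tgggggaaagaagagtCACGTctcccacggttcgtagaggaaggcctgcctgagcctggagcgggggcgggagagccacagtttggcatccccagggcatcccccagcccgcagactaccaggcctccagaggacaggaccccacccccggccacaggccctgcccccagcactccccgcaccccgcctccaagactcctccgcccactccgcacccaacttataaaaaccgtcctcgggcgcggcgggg
BNIP3 (chr10:131981924-131982173, minus strand): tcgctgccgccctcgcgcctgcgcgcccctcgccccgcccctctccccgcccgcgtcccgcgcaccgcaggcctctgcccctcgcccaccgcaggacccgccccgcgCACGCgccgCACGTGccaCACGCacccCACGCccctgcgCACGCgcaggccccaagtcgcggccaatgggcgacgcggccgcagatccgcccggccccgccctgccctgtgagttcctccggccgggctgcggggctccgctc
ENO1 (chr1:8878687-8878936, minus strand): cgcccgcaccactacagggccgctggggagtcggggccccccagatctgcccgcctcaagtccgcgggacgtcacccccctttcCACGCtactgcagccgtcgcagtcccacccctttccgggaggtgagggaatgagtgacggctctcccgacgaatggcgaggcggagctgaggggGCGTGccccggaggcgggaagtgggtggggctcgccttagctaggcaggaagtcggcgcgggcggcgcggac
PGK1 (chrX:78103998-78104247, plus strand): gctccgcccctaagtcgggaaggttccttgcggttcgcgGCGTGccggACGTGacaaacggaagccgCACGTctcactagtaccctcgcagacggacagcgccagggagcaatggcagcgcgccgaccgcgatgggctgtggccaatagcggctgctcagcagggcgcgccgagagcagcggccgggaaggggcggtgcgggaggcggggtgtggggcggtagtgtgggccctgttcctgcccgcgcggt
GAPDH (chr12:6535014-6535263, plus strand): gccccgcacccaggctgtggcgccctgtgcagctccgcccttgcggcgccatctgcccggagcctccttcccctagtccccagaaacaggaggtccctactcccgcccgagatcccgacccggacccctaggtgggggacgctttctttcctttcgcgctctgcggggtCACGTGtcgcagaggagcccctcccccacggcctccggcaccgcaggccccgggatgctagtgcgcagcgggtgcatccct
The core was found 1 time before ANGPTL4, 6 times before BNIP3, 2 times before ENO1, 3 times before PGK1 and 2 times, in 1 palindrome, before GAPDH. A promoter entry was found for 31 of the 34 members, and 27 of the 31 (87.1%) held at least 1 core in the 250 bases of any entry. By the same count 47.4% of 27305 genes with an entry did. Genes with several entries thus had more chances of a match. HK1 and PFKM had 7 entries each, most of them without a core. The shares were 18 of 22 for the glycolysis genes and 9 of 9 for the other hypoxia targets. By result against TGFb1 alone, 8 of 9 members that fell with acriflavine held a core, 6 of 6 that rose and 11 of 14 that did not pass. A match is a description of letters, not a shown binding site, and the members were chosen as genes of this response.

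Values are log2 intensities, so a difference of 1 is a 2-fold change of the signal. Changes are differences of group means ± the standard error (SE) of a linear model (limma) fitted over all 14 arrays. A gene is said to have risen or fallen where its p, adjusted by Benjamini-Hochberg over the 10877 genes tested, was below 0.05. Array medians lay between 7.16 and 7.21. Replicates 4 of the control and TGFb1 groups, which the labels describe as profiled in addition to the other 3, stood apart from their groups. Over all genes, the deviations from the group mean had an SD of 0.375 in TGFb1 replicate 4, 0.250 in control replicate 4 and 0.256 in TGFb1 replicate 2, while the other 11 arrays had 0.0665 to 0.160. Without both replicates 4, 16, 22 and 16 members were called in the 3 main comparisons in place of 17, 18 and 12, of which 15, 17 and 12 were shared. Over all 10877 genes tested the counts were then 3155, 6291 and 5208 in place of 1997, 4738 and 3402, so the background moved as well. The keratins of ductal carcinoma cells were present: KRT8 lay between 12.8 and 14.1, KRT18 between 13.1 and 14.3 and KRT19 between 11.4 and 13.5. Of 22 markers of leukocytes, endothelium, hepatocytes and stromal fibroblasts, 8 passed the brightness limit, and the leukocyte marker PTPRC (at most 4.05), albumin (ALB, at most 5.20) and decorin (DCN, at most 4.44) lay far below it. Others were bright, with maxima of 9.41 for CD68, 8.96 for RBP4, 10.02 for THY1 and 9.82 for ESAM. LUM, below the limit, averaged 3.54 in control and 6.14 in valproate arrays. The summed signal of these 22 markers, on the linear scale, was 2110 to 2580 in control, 2290 to 3120 in TGFb1, 2600 to 2770 in acriflavine and 4050 to 4130 in valproate arrays. In bulk RNA, fewer cells of a type and less RNA per cell cannot be told apart.

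The central contrast is between the glycolysis genes and the other hypoxia targets. Each array's mean difference from the control mean was taken over the 21 glycolysis genes tested and over the 11 other targets tested. The glycolysis mean was 0.099 to 0.25 in TGFb1 arrays, 0.15 to 0.16 in acriflavine arrays and 0.28 to 0.33 in valproate arrays, against -0.043 to 0.046 in control arrays. By this mean every treated array was above every control array, and acriflavine arrays lay within the range of TGFb1 arrays. The 17 enzymes without the transporter and the regulators averaged -0.045 to 0.038 in control, -0.023 to 0.17 in TGFb1, 0.066 to 0.097 in acriflavine and 0.13 to 0.20 in valproate arrays, so TGFb1 and control arrays overlapped. The median of the 21 genes also overlapped, at 0.049 to 0.31 in TGFb1 and -0.0084 to 0.055 in control arrays. The mean of the other targets was 0.10 to 0.40 in TGFb1 arrays, -0.16 to -0.12 in acriflavine arrays and 0.44 to 0.52 in valproate arrays, against -0.15 to 0.067 in control arrays. Here the acriflavine arrays lay below every TGFb1 and valproate array. ANGPTL4 alone carried much of that mean. Without it, the other 10 targets averaged -0.16 to 0.077 in control, -0.15 to 0.13 in TGFb1, -0.21 to -0.18 in acriflavine and 0.11 to 0.21 in valproate arrays. The TGFb1 group mean was then -0.0044, so the mean of the other 10 targets showed no shift from control with TGFb1. That mean joins opposite moves of single genes. With TGFb1, BHLHE40, NDRG1 and ANKRD37 rose, while BNIP3, ADM and MXI1 fell. The difference between both subsets was not tested, since their genes were chosen with results of these data known. The glycolysis genes also held most of the brightest members, and the part of brightness in the contrast was not tested.

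**Figure D1:**
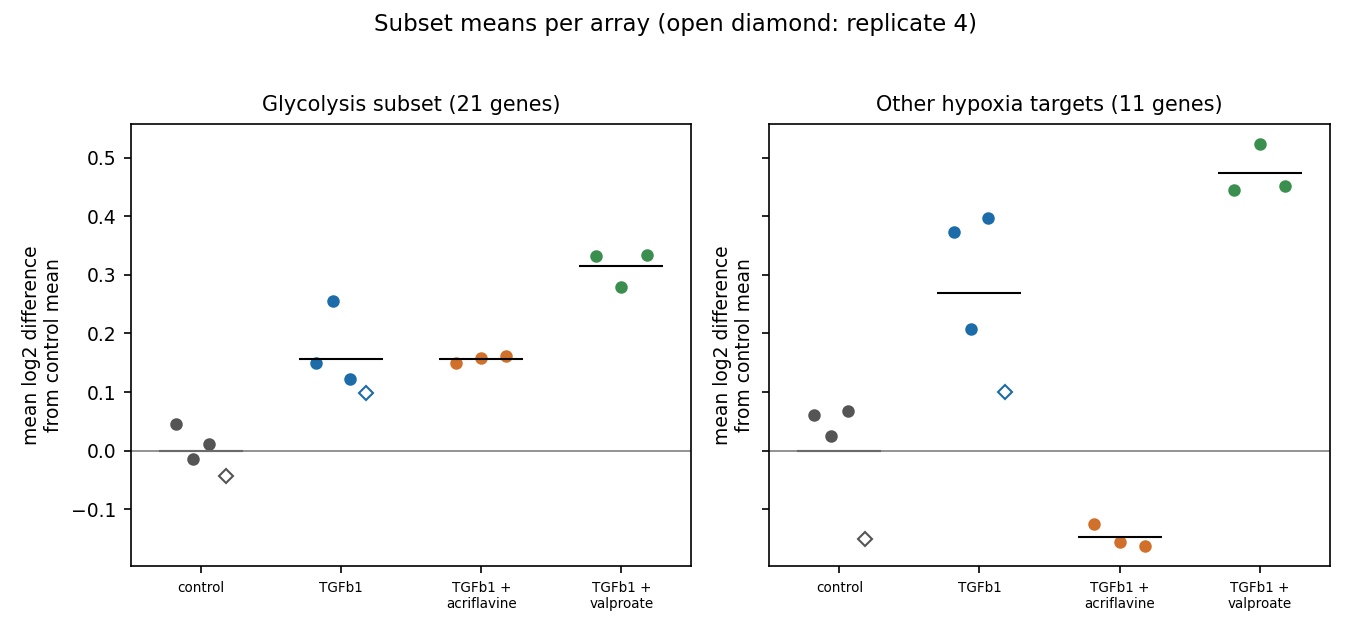
Mean log2 difference from the control mean in each of 14 arrays (vertical axis) by group (horizontal axis), for the 21 glycolysis genes on the left and the 11 other hypoxia targets on the right; points are arrays, open diamonds are replicates 4 and lines are group means. The 3 acriflavine arrays lie at 0.15 to 0.16 on the left and at -0.16 to -0.12 on the right.

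TGFb1 was compared with control to show what the cytokine did to these genes with neither compound present. Of the 21 glycolysis genes tested, 8 rose, 2 fell and 11 did not pass, and their median change was 0.14. Of the 11 other targets, 4 rose, 3 fell and 4 did not pass, with a median of 0.22. Over all genes tested 18.4% were called (8.39% rose and 9.97% fell) and the median change was 0.00, so the shares of members called (47.6% and 63.6%) were above the background. That reading depended on the fit: with both groups fitted alone, 2 of the 21 and 3 of the 11 were called beside 963 of the 10877 genes, which puts the glycolysis genes near the background. The count over all genes was 3149 without TGFb1 replicate 4 in place of 1997. The members were chosen with earlier results of these data known. The shares called, here and in the comparisons below, therefore describe this list and are not a test of it. By far the largest change was that of ANGPTL4. The 17 enzymes from hexokinase to lactate dehydrogenase gave 6 rises and 2 falls, which ranged from -0.49 (ENO2) to 0.42 (PKM).

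SLC2A1 encodes the main glucose transporter of most carcinoma cells. It read 9.95, 9.99, 9.97 and 9.66 in control arrays 1 to 4, 10.80, 10.52, 10.77 and 9.89 in TGFb1 arrays, 9.80, 9.80 and 9.79 in acriflavine arrays, and 10.23, 10.49 and 10.49 in valproate arrays. TGFb1 replicates 1 to 3 were above every control array and replicate 4 was not, while the 3 acriflavine arrays were below every TGFb1 array. The acriflavine arrays were also below control replicates 1 to 3, and lay within the control range only through control replicate 4 (9.66). SLC2A1 rose by 0.60 ± 0.163 with TGFb1 (limma, adjusted p = 0.0205) and fell by 0.69 ± 0.176 with acriflavine against TGFb1 alone (adjusted p = 0.00574). With valproate the difference from TGFb1 alone was -0.09 ± 0.176 (adjusted p = 0.747).

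Hexokinases trap glucose in the cell by adding a phosphate, HK1 being the broadly expressed form and HK2 the inducible one. HK2 read 9.11, 8.76, 9.20 and 8.14 in control arrays, 8.63, 7.84, 8.58 and 6.93 in TGFb1 arrays, 7.17, 7.22 and 7.39 in acriflavine arrays, and 8.04, 9.07 and 8.27 in valproate arrays. Replicates 4 were the lowest of both their groups, and control and TGFb1 arrays overlapped. The change with TGFb1 was -0.80 ± 0.348 (adjusted p = 0.13), which passed with the replicate number as a block (-0.80, adjusted p = 0.0209) and not with both replicates 4 left out (-0.67, adjusted p = 0.0564). With acriflavine the difference from TGFb1 alone was -0.74 ± 0.376 (adjusted p = 0.132), and without TGFb1 replicate 4 it was -1.09 (adjusted p = 0.00672). Against control, where all 3 acriflavine arrays lay below all 4 control arrays, HK2 fell by 1.54 ± 0.376 with acriflavine (adjusted p = 0.00402). HK1 rose by 0.38 ± 0.105 with TGFb1 (adjusted p = 0.0228). Against TGFb1 alone it rose by 0.52 ± 0.113 in the acriflavine arm (adjusted p = 0.00215) and by 0.72 ± 0.113 in the valproate arm (adjusted p = 0.000295).

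Phosphofructokinase commits sugar to glycolysis, and the 3 genes of its subunits did not move as 1. PFKP, the platelet-type subunit, rose by 0.35 with TGFb1 (adjusted p = 0.0341) and by 0.31 with acriflavine (adjusted p = 0.0439). PFKL, the liver-type subunit, fell by 0.28 with TGFb1 (adjusted p = 0.0497) and was lower than control by 0.46 in acriflavine arrays (adjusted p = 0.00177) and by 0.46 in valproate arrays (adjusted p = 0.00245). PFKM, the muscle-type subunit, rose by 0.65 with valproate against TGFb1 alone (adjusted p = 0.013). GPI, which precedes this step and makes fructose phosphate, did not pass in any of the 3 main comparisons, its changes being 0.01, 0.11 and -0.26.

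PFKFB3 and PFKFB4 make and remove fructose 2,6-bisphosphate, the strongest known activator of phosphofructokinase. PFKFB3 read 8.91, 8.86, 8.89 and 8.95 in control arrays, 10.36, 10.53, 10.35 and 10.19 in TGFb1 arrays, 9.87, 9.71 and 9.80 in acriflavine arrays, and 10.39, 10.29 and 10.39 in valproate arrays. Every TGFb1 array was above every control array, and the acriflavine arrays fell between both groups without touching either. PFKFB3 rose by 1.46 ± 0.0756 with TGFb1 (adjusted p = 2.39e-08), a 2.74-fold rise and the largest among the glycolysis genes. It fell by 0.56 ± 0.0817 with acriflavine (adjusted p = 9.67e-05) and did not pass with valproate (adjusted p = 0.989). A dimmer probe set of PFKFB3 rose by 0.44 with TGFb1, and its change with acriflavine was -0.24, so the size of the response depended on the probe set.

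PFKFB4 gave another order of the groups. It read 6.70, 6.30, 6.44 and 6.96 in control arrays, 6.55, 7.13, 6.69 and 7.90 in TGFb1 arrays, 8.51, 8.66 and 8.65 in acriflavine arrays, and 8.13, 7.73 and 7.86 in valproate arrays. All acriflavine arrays were above all arrays of the other 3 groups, and TGFb1 replicate 4 lay within the valproate range. The change with TGFb1 was 0.47 ± 0.238 (adjusted p = 0.198), which passed with the replicate number as a block (0.47, adjusted p = 0.0411) and not with both replicates 4 left out (0.31, adjusted p = 0.13). PFKFB4 rose by 1.54 ± 0.257 with acriflavine against TGFb1 alone (adjusted p = 0.000285, 2.91-fold) and by 0.84 ± 0.257 with valproate (adjusted p = 0.023). Its control mean of 6.60 was under the lowest mean tested of 6.89, so it passed the brightness limit only through its treated arrays.

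Most enzymes of the lower pathway were bright. Over the 10 members with a mean of at least 13, ADM and 9 enzymes, the median size of the change was 0.186 with TGFb1, 0.167 with acriflavine and 0.115 with valproate against TGFb1 alone, beside 0.0641, 0.143 and 0.0790 over all 283 genes of such brightness. Over all genes tested of any brightness it was 0.157, 0.274 and 0.209, so genes this bright changed less in general. GAPDH, which oxidises glyceraldehyde phosphate and is a common reference gene, read 14.03, 14.08, 14.09 and 14.10 in control arrays, 14.03, 14.17, 13.99 and 14.11 in TGFb1 arrays, 14.10, 14.12 and 14.11 in acriflavine arrays, and 14.06, 14.01 and 14.04 in valproate arrays. All 14 arrays thus lay within 0.173 of each other, the narrowest range of any member, and GAPDH did not pass in any of the 6 comparisons. Its changes were 0.00 ± 0.0603 with TGFb1, 0.04 ± 0.0651 with acriflavine and -0.04 ± 0.0651 with valproate.

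PGK1 makes the first ATP of the lower pathway. It read 13.17, 13.22, 13.14 and 13.19 in control arrays, 13.38, 13.56, 13.32 and 13.50 in TGFb1 arrays, 13.45, 13.38 and 13.51 in acriflavine arrays, and 13.46, 13.38 and 13.47 in valproate arrays. Every treated array was above every control array, and the 3 treated groups overlapped. PGK1 rose by 0.26 ± 0.0687 with TGFb1 (adjusted p = 0.0186), and the differences from TGFb1 alone did not pass for acriflavine (0.01 ± 0.0742, adjusted p = 0.931) or valproate (adjusted p = 0.989). All 9 of its tested probe sets rose with TGFb1, whereas with acriflavine 3 of the 9, the dimmest ones, fell by 0.35 to 0.42 and the other 6 did not pass.

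LDHA turns pyruvate into lactate. It read 13.88, 13.95, 13.88 and 14.06 in control arrays, 14.20, 14.26, 14.21 and 14.39 in TGFb1 arrays, 14.28, 14.24 and 14.29 in acriflavine arrays, and 14.09, 13.96 and 14.07 in valproate arrays. TGFb1 and acriflavine arrays were all above the control arrays, and valproate arrays overlapped the control arrays. LDHA rose by 0.32 ± 0.0698 with TGFb1 (adjusted p = 0.00549), did not pass with acriflavine (0.01 ± 0.0754, adjusted p = 0.96) and fell by 0.22 ± 0.0754 with valproate (adjusted p = 0.0357). LDHB, the subunit known to favour the reverse reaction, rose by 0.21 with TGFb1 (adjusted p = 0.0397) and did not pass with either compound.

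The enolases, which make phosphoenolpyruvate, moved in opposite directions with both compounds against TGFb1 alone. ENO1, the ubiquitous form, read 13.58, 13.46, 13.44 and 13.62 in control arrays, 13.33, 13.41, 13.26 and 13.45 in TGFb1 arrays, 12.78, 12.75 and 12.84 in acriflavine arrays, and 13.15, 13.09 and 13.21 in valproate arrays. The acriflavine arrays were the lowest 3 of the 14. ENO1 fell by 0.57 ± 0.0762 with acriflavine against TGFb1 alone (adjusted p = 4.62e-05) and by 0.21 with valproate (adjusted p = 0.0493), and its change with TGFb1 was -0.16 (adjusted p = 0.134). ENO2, the form known from neurons, fell by 0.49 ± 0.083 with TGFb1 (adjusted p = 0.001) and, against TGFb1 alone, rose by 0.62 ± 0.0897 with acriflavine (adjusted p = 9.57e-05) or by 0.77 ± 0.0897 with valproate (adjusted p = 2.69e-05). Against control, ENO2 did not pass with acriflavine (0.13, adjusted p = 0.245). In the main fit ENO1 was the only 1 of the 17 enzymes that fell with acriflavine against TGFb1 alone, while HK1, PFKP and ENO2 rose and 13 did not pass. This depended on the replicates 4. Without both of them HK2 (-1.09), PFKL (-0.26) and ALDOC (-0.40) fell as well, TPI1 and PGAM1 rose, and PFKP did not pass.

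PKM, pyruvate kinase, rose by 0.42 with TGFb1 (adjusted p = 0.0485), the largest rise among the 17 enzymes in the main fit, and was above control by 0.67 with acriflavine (adjusted p = 0.0021) and by 0.54 with valproate (adjusted p = 0.0105). Without both replicates 4 PKM rose by 0.36 with TGFb1, less than PFKP (0.43) or HK1 (0.38). The aldolases ALDOA and ALDOC, which split the sugar, triosephosphate isomerase TPI1 and phosphoglycerate mutase PGAM1 did not pass in any of the 3 main comparisons. Their changes lay between -0.02 and 0.14 with TGFb1, between -0.25 and 0.17 with acriflavine and between -0.12 and 0.26 with valproate. ALDOC depended on the probe set: its mean over all probe sets gave -0.60 with acriflavine (adjusted p = 0.000301) and 0.66 with valproate (adjusted p = 0.000206), with calls that the brightest probe set did not make.

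**Figure D2:**
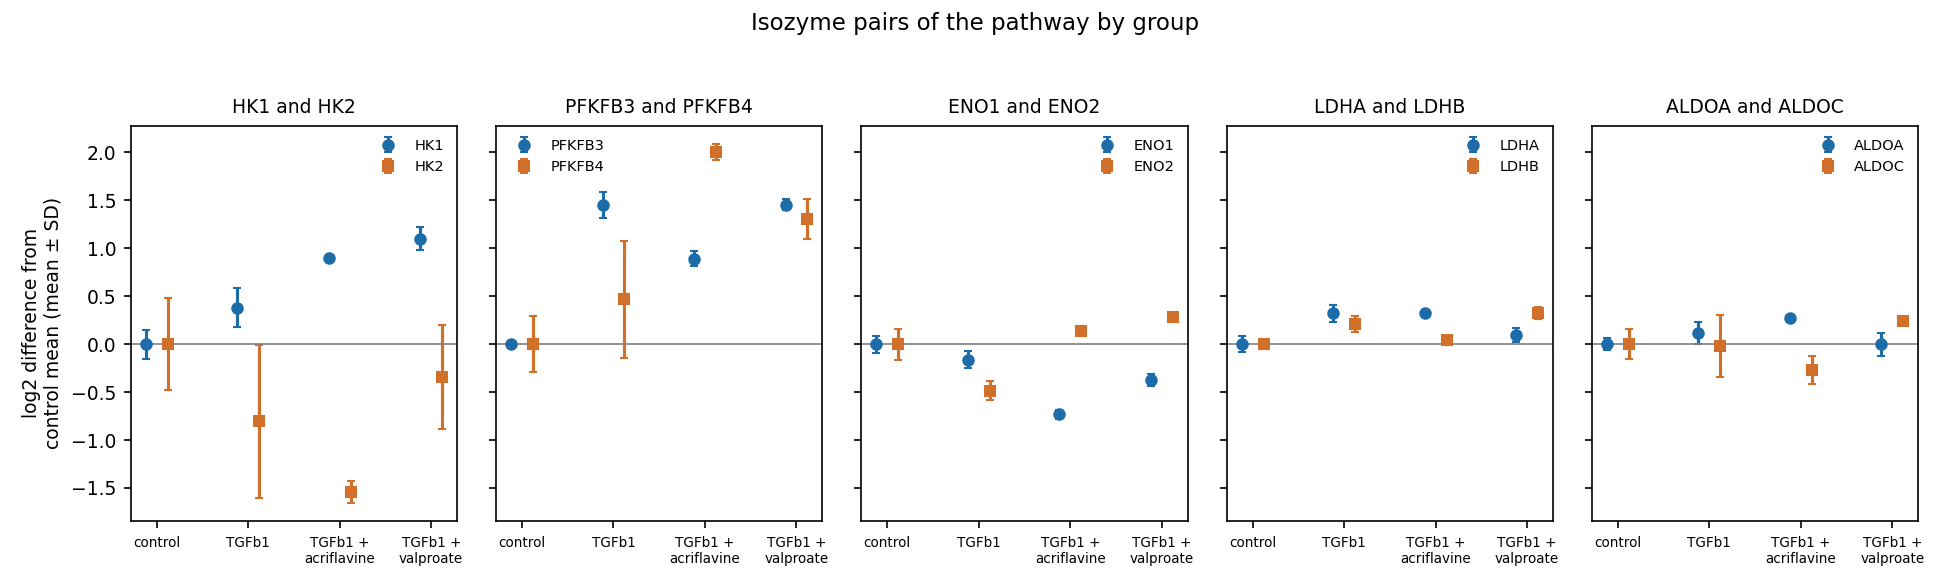
Difference of each group's mean from the control mean on the log2 scale (vertical axis; bars are SD over 3 or 4 arrays) in the 4 groups (horizontal axis), for 5 pairs of related genes. HK1 and HK2, and ENO1 and ENO2, lie on opposite sides of 0 in acriflavine arrays, whereas LDHA and LDHB lie between 0.05 and 0.33 in every treated group.

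PDK1 is the kinase that shuts pyruvate dehydrogenase and so keeps pyruvate out of the mitochondrial cycle. It read 8.49, 8.24, 8.62 and 8.02 in control arrays, 8.62, 7.94, 8.55 and 8.22 in TGFb1 arrays, 7.58, 7.26 and 7.61 in acriflavine arrays, and 8.69, 8.90 and 8.59 in valproate arrays. The acriflavine arrays were below all others, while control and TGFb1 arrays overlapped. PDK1 fell by 0.85 ± 0.174 with acriflavine against TGFb1 alone (adjusted p = 0.00133). Its changes with TGFb1 (-0.01 ± 0.161, adjusted p = 0.981) and with valproate (0.39 ± 0.174, adjusted p = 0.106) did not pass.

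Among the secreted targets, VEGFA is the main growth factor for blood vessels. It read 11.84, 11.91, 12.02 and 12.03 in control arrays, 12.25, 12.09, 12.39 and 12.01 in TGFb1 arrays, 11.09, 11.21 and 11.15 in acriflavine arrays, and 11.79, 11.95 and 11.77 in valproate arrays. Acriflavine arrays were below all others, and valproate arrays were below every TGFb1 array and overlapped the control arrays. With TGFb1 the change was 0.24 ± 0.089 (adjusted p = 0.0845), and 0.32 without both replicates 4 (adjusted p = 0.0147). With acriflavine it fell 2.05-fold (-1.03 ± 0.0961, adjusted p = 2.16e-06), and all 10 of its probe sets fell, by 0.41 to 1.29. With valproate it fell by 0.35 ± 0.0961 (adjusted p = 0.0132).

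ANGPTL4 encodes a secreted inhibitor of lipoprotein lipase. It read 9.06, 9.13, 9.01 and 8.94 in control arrays, 12.13, 12.37, 12.07 and 11.62 in TGFb1 arrays, 9.46, 9.46 and 9.24 in acriflavine arrays, and 12.75, 12.71 and 12.89 in valproate arrays. The 4 groups did not overlap. With TGFb1 the rise was 8.07-fold (adjusted p = 2.77e-09), with acriflavine the level fell 6.34-fold from TGFb1 alone (adjusted p = 1.61e-08), and with valproate it rose from TGFb1 alone by 0.74 ± 0.137 (adjusted p = 0.00104). Against control the acriflavine arrays remained higher by 0.35 ± 0.137 (adjusted p = 0.0492), a call that was lost without any 1 of 11 arrays (adjusted p up to 0.146) and kept without acriflavine replicate 3, TGFb1 replicate 2 or TGFb1 replicate 4.

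ADM, the vasodilator peptide adrenomedullin, took the opposite course. It read 13.59, 13.58, 13.51 and 12.80 in control arrays, 13.05, 12.87, 12.94 and 12.02 in TGFb1 arrays, 13.67, 13.66 and 13.64 in acriflavine arrays, and 12.41, 12.33 and 12.33 in valproate arrays. Replicates 4 were the lowest arrays of both their groups, and acriflavine arrays were the highest 3 of the 14. ADM fell by 0.65 ± 0.209 with TGFb1 (adjusted p = 0.0444) and rose by 0.94 ± 0.225 with acriflavine (adjusted p = 0.00407). With valproate the difference from TGFb1 alone was -0.36 ± 0.225 (adjusted p = 0.252), and without TGFb1 replicate 4 it passed (adjusted p = 0.00881).

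BNIP3 and BNIP3L are outer mitochondrial membrane proteins that mark mitochondria for removal. BNIP3 read 11.93, 11.81, 11.92 and 11.69 in control arrays, 11.24, 11.17, 11.18 and 10.90 in TGFb1 arrays, 12.16, 12.25 and 12.24 in acriflavine arrays, and 11.67, 11.65 and 11.61 in valproate arrays. The 4 groups did not overlap, and their order from low to high was TGFb1, valproate, control and acriflavine. BNIP3 fell by 0.72 ± 0.084 with TGFb1 (adjusted p = 4.3e-05), rose by 1.09 ± 0.0907 with acriflavine (adjusted p = 7.72e-07, 2.13-fold) and rose by 0.52 ± 0.0907 with valproate (adjusted p = 0.00066). In contrast, BNIP3L fell by 0.91 ± 0.146 with acriflavine (adjusted p = 0.000208), and its changes with TGFb1 (-0.29, adjusted p = 0.157) and valproate (0.12, adjusted p = 0.579) did not pass.

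Of the targets that act on transcription, MXI1, an antagonist of MYC, fell by 0.48 ± 0.128 with TGFb1 (adjusted p = 0.0191), and, against TGFb1 alone, fell by 0.86 ± 0.139 with acriflavine (adjusted p = 0.000227) and rose by 0.79 ± 0.139 with valproate (adjusted p = 0.000713). BHLHE40, a repressor also known from the circadian clock, rose by 0.95 ± 0.169 with TGFb1 (adjusted p = 0.0014) and fell by 0.67 ± 0.183 with acriflavine (adjusted p = 0.0086). KDM3A, a histone demethylase, fell by 0.59 ± 0.105 with acriflavine (adjusted p = 0.000507). All 3 of these genes fell with acriflavine, whereas with TGFb1 MXI1 fell, BHLHE40 rose and KDM3A did not pass (0.22, adjusted p = 0.131).

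NDRG1, a stress-responsive gene, rose by 0.37 ± 0.109 with TGFb1 (adjusted p = 0.0326). Against TGFb1 alone it rose by 0.70 ± 0.118 with acriflavine (adjusted p = 0.000323) and by 0.83 ± 0.118 with valproate (adjusted p = 0.000127). ANKRD37 rose by 0.36 ± 0.0942 with TGFb1 (adjusted p = 0.0172) and fell by 0.58 with acriflavine (adjusted p = 0.00042) and by 0.43 with valproate (adjusted p = 0.00572). ERO1A, an oxidase of protein folding in the endoplasmic reticulum, read 10.41, 10.39, 10.51 and 10.04 in control arrays, 10.38, 9.90, 10.58 and 10.34 in TGFb1 arrays, 10.34, 10.29 and 10.22 in acriflavine arrays, and 10.65, 10.73 and 10.52 in valproate arrays. The valproate arrays lay above all control and acriflavine arrays and overlapped the TGFb1 arrays. ERO1A was the 1 tested target outside glycolysis that did not pass with acriflavine (-0.02 ± 0.143, adjusted p = 0.946). CA12, a carbonic anhydrase of the cell surface, lay below the brightness limit with values from 6.04 to 6.78 and has no test.

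**Figure D3:**
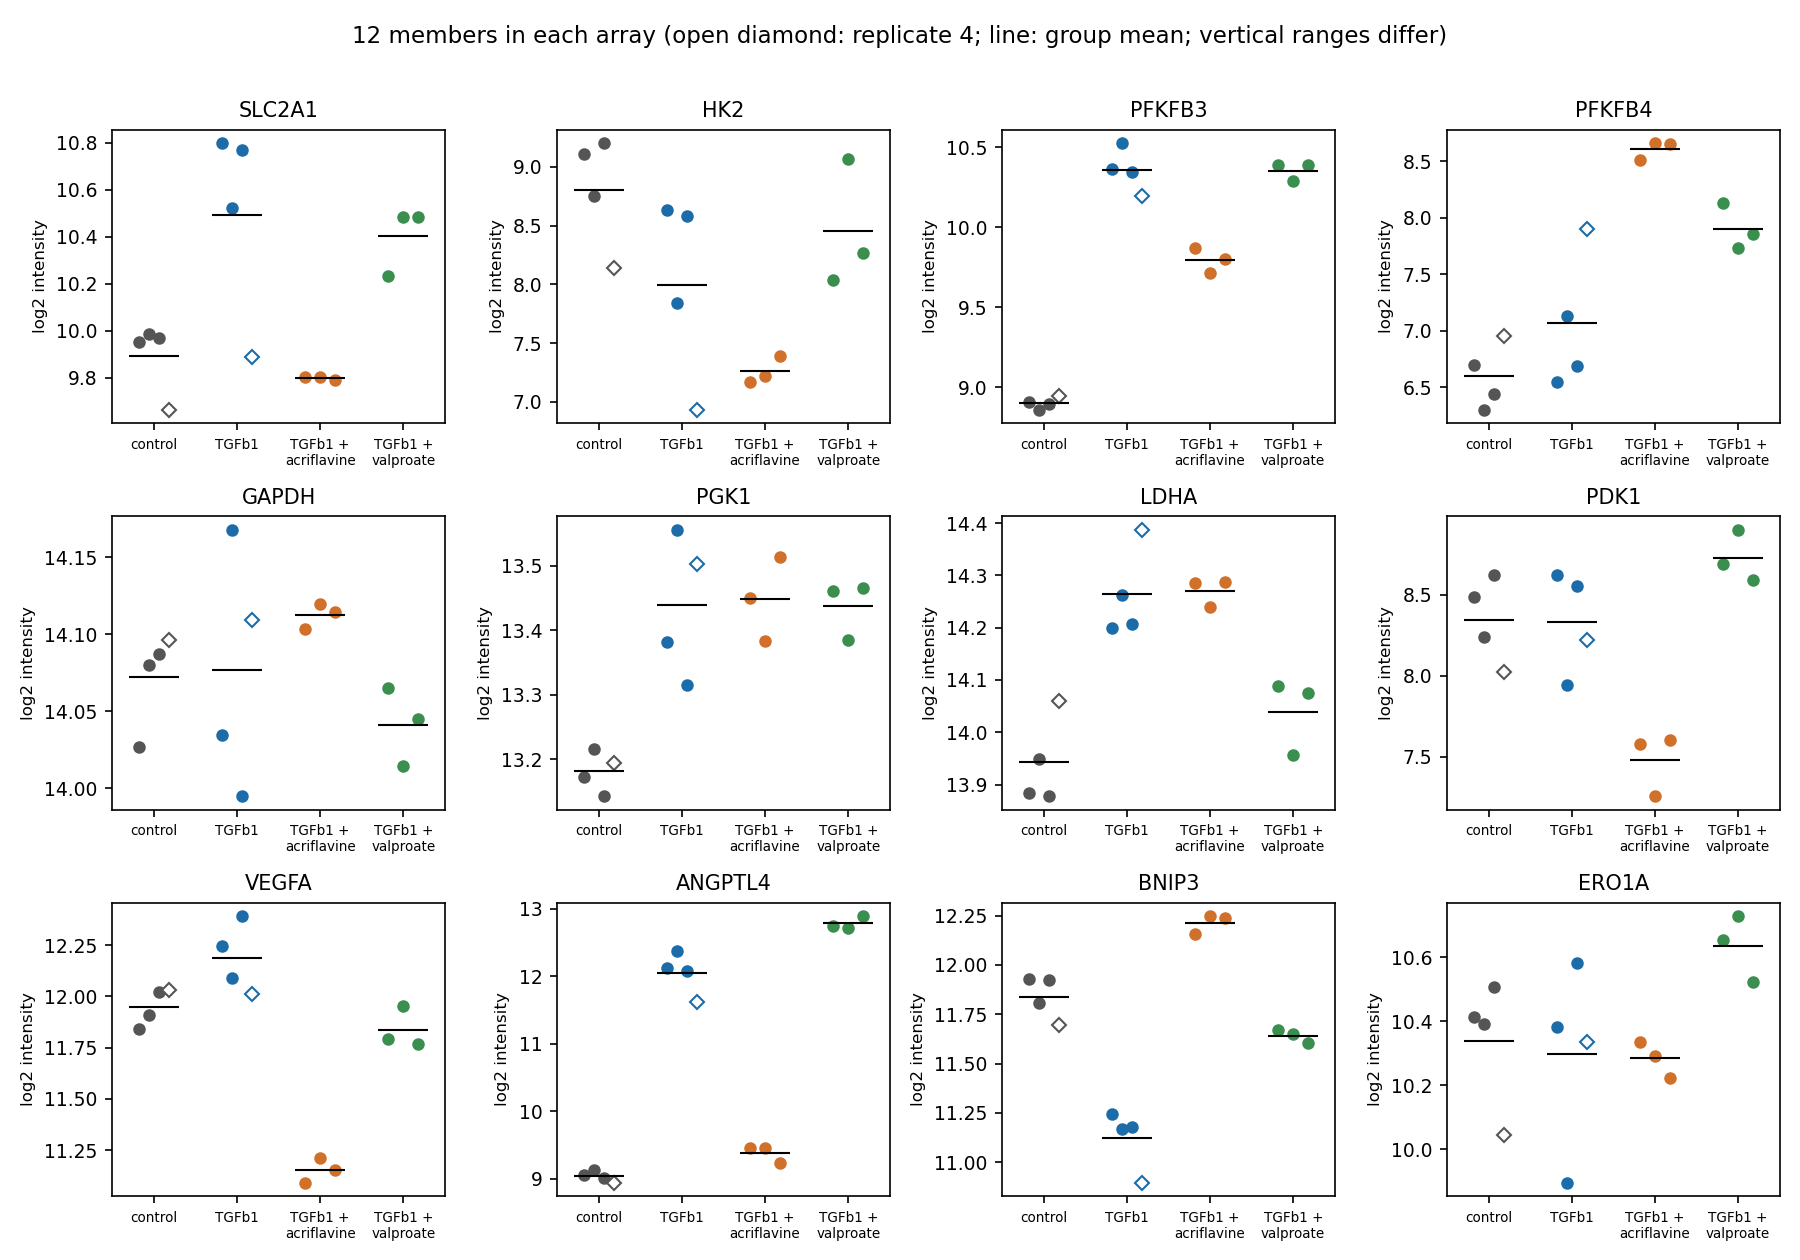
Log2 intensity (vertical axis, ranges differ between panels) in each of the 14 arrays by group (horizontal axis) for 12 members; points are arrays, open diamonds are replicates 4 and lines are group means. ANGPTL4 and BNIP3 show 4 separate groups in different orders, and GAPDH spans only 0.173 over all arrays.

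How the calls hold differed between the comparisons. For TGFb1 against control, 6 of 17 calls (PFKFB3, ENO2, LDHA, ANGPTL4, BNIP3 and BHLHE40) held without any 1 array, and the count of members called was 7 without control replicate 3, 10 without control replicate 2 and 11 without TGFb1 replicate 1, TGFb1 replicate 3 or control replicate 4. Control replicate 3 alone decided PGK1 (adjusted p = 0.0592 without it) and ANKRD37 (adjusted p = 0.0505). SLC2A1 was lost without TGFb1 replicate 1 or 3 or control replicate 4 (adjusted p up to 0.0616), HK1 without control replicate 2 or 3 or TGFb1 replicate 2 (up to 0.0777), and MXI1 without control replicate 1 or 3 or TGFb1 replicate 2 (up to 0.0606). NDRG1 was lost without TGFb1 replicate 1 or 3 or control replicate 2, 3 or 4 (up to 0.0913), and PFKP without any of these or TGFb1 replicate 2 (up to 0.0855). PKM kept its call only without control replicate 1 or TGFb1 replicate 4 (up to 0.129), PFKL and LDHB only without TGFb1 replicate 2 (up to 0.114 and 0.0887), and ADM only without TGFb1 replicate 1, TGFb1 replicate 3 or control replicate 4 (up to 0.114). VEGFA passed without TGFb1 replicate 4 (adjusted p = 0.0202) and KDM3A without TGFb1 replicate 2 (adjusted p = 0.0279).

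The acriflavine arrays were set against those of TGFb1 alone to show what the dye changed in cells that had the cytokine. Of the 21 glycolysis genes, 4 rose (HK1, PFKP, PFKFB4 and ENO2), 4 fell (SLC2A1, PFKFB3, ENO1 and PDK1) and 13 did not pass, with a median change of 0.04. Of the 11 other hypoxia targets, 3 rose (BNIP3, ADM and NDRG1), 7 fell (VEGFA, ANGPTL4, BNIP3L, ANKRD37, KDM3A, MXI1 and BHLHE40) and 1 did not pass, with a median of -0.59. Over all genes tested 43.6% were called (24.5% rose and 19.1% fell) and the median was 0.03, so the share of glycolysis genes called (38.1%) was near the background and that of the other targets (90.9%) was above it. Of 40 further HIF targets tested, described below, 55% were called, with a median of -0.04. The low median of the 11 was thus not shared by that wider list. Among the 17 enzymes alone 23.5% were called. Of the 18 calls of members, 17 held without any 1 array. PFKP was lost without any 1 of 9 arrays (adjusted p up to 0.175) and kept without TGFb1 replicate 2, acriflavine replicate 3, valproate replicate 2 or 3 or control replicate 4. HK2, PFKL, ALDOC and PGAM1 passed without TGFb1 replicate 4 (adjusted p = 0.00672, 0.0234, 0.00785 and 0.016), and TPI1 passed without TGFb1 replicate 2 or control replicate 4 (0.0269 and 0.0461).

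Both comparisons use the TGFb1 arrays, so their changes are given side by side and are not independent. SLC2A1, PFKFB3, ANGPTL4, ANKRD37 and BHLHE40 rose with TGFb1 and fell with acriflavine against TGFb1 alone. ENO2, BNIP3 and ADM fell with TGFb1 and rose with acriflavine. PDK1, VEGFA, BNIP3L and KDM3A fell with acriflavine without having passed with TGFb1.

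**Figure D4:**
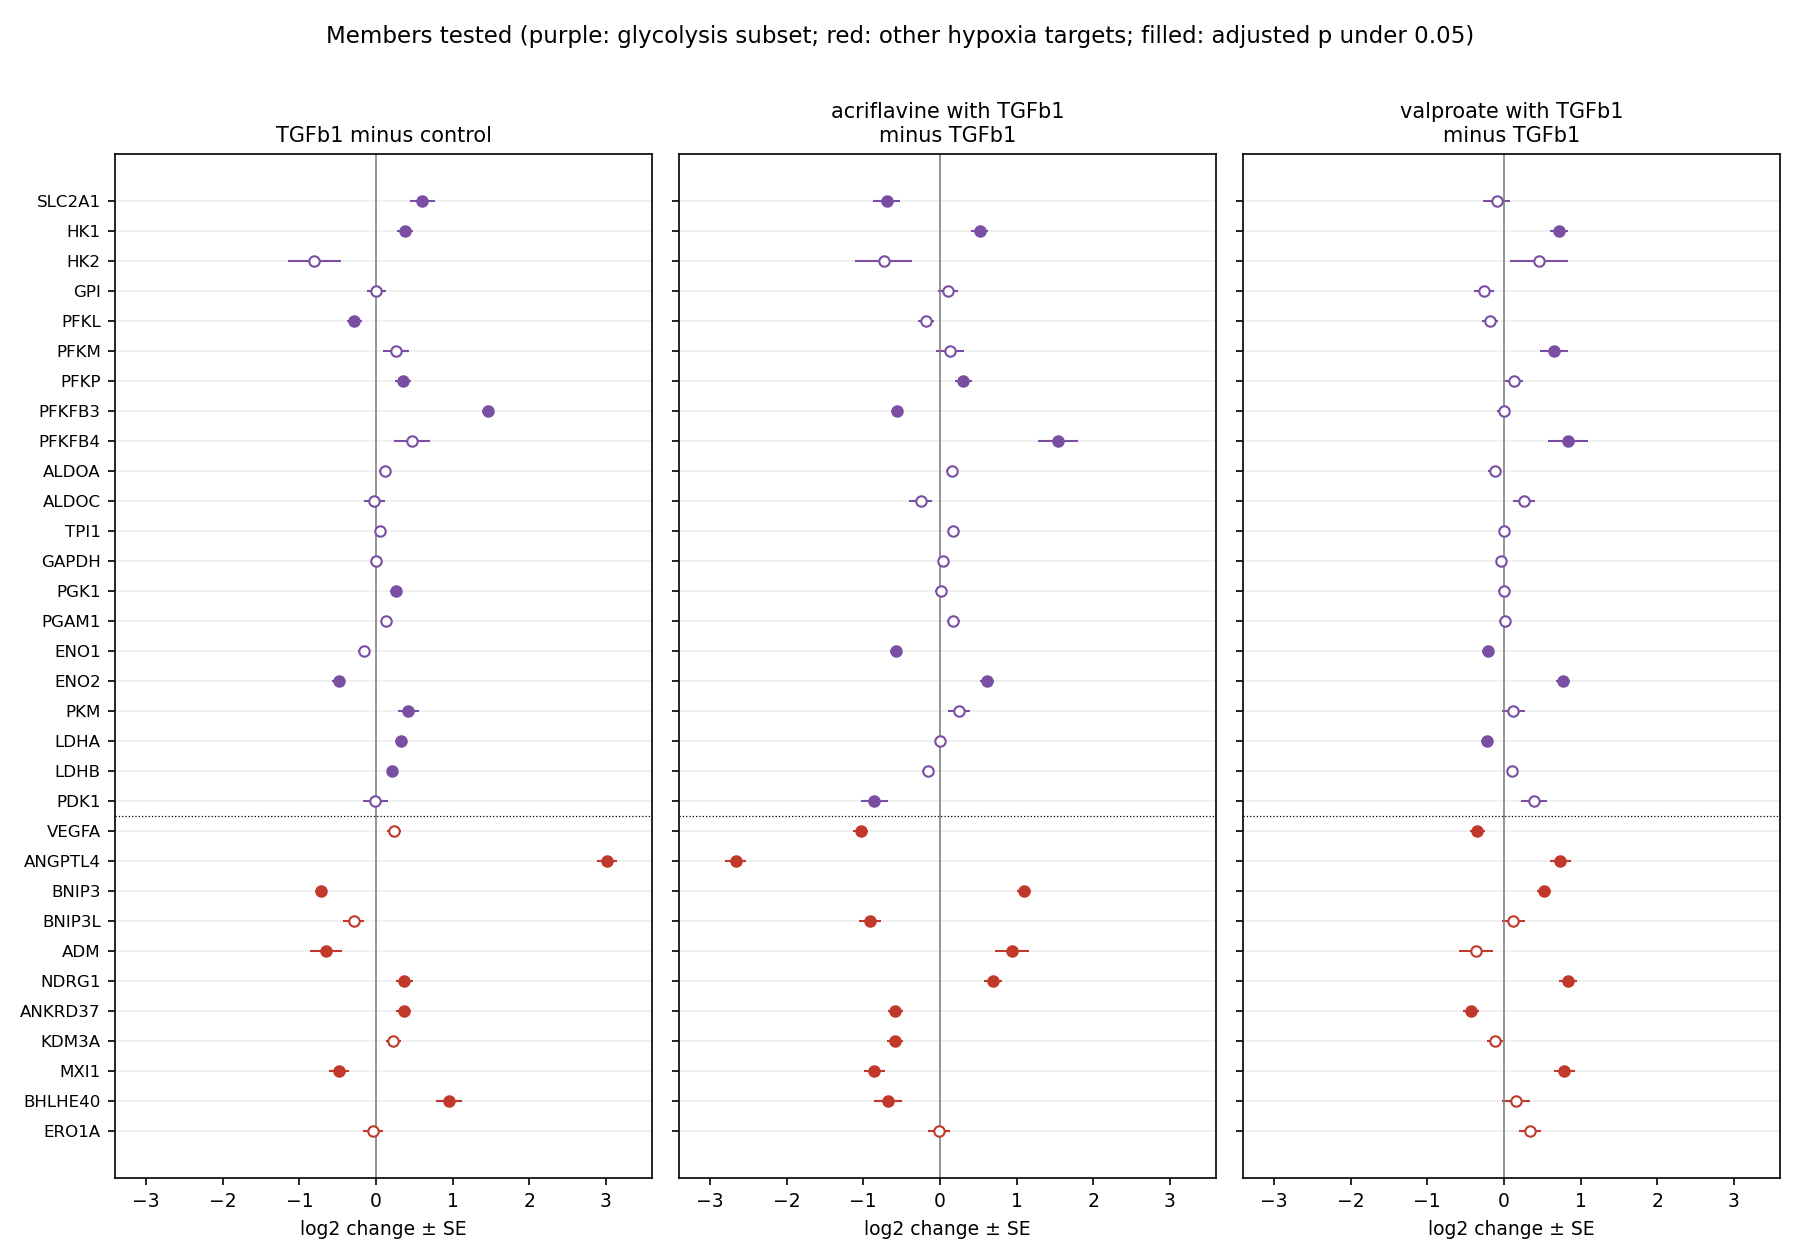
Log2 change ± SE (horizontal axis) of the 32 tested members (vertical axis) in TGFb1 minus control, acriflavine with TGFb1 minus TGFb1, and valproate with TGFb1 minus TGFb1; purple marks glycolysis genes, red the other hypoxia targets, and filled points passed at an adjusted p of 0.05. In the middle panel 7 of 11 red points are filled on the left of 0, and 13 of 21 purple points are open.

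The valproate arrays were set against TGFb1 alone in the same way. Of the 21 glycolysis genes, 4 rose (HK1, PFKM, PFKFB4 and ENO2), 2 fell (ENO1 and LDHA) and 15 did not pass, with a median of 0.01. Of the 11 other targets, 4 rose (ANGPTL4, BNIP3, NDRG1 and MXI1), 2 fell (VEGFA and ANKRD37) and 5 did not pass, with a median of 0.16. Over all genes 31.3% were called (15.1% rose and 16.2% fell) and the median was -0.01, so the share of glycolysis genes called (28.6%) was near the background and that of the other targets (54.5%) above it. HK1, ENO2, ANGPTL4, BNIP3, NDRG1, ANKRD37 and MXI1 held without any 1 array. The count of members called was 7 without valproate replicate 3. PFKM was lost without valproate replicate 3 (adjusted p = 0.0529), VEGFA without valproate replicate 1 or 3 (up to 0.0607), PFKFB4 without TGFb1 replicate 1 or 3 or valproate replicate 1 or 3 (up to 0.0972), and LDHA without any valproate array, acriflavine replicate 1 or TGFb1 replicate 4 (up to 0.152). ENO1 kept its call only without TGFb1 replicate 3 or control replicate 4 (up to 0.171). SLC2A1, PFKL and ADM passed without TGFb1 replicate 4 (adjusted p = 0.0401, 0.0298 and 0.00881), and ERO1A without TGFb1 replicate 3 (0.0357). BNIP3 was not called when all its probe sets were averaged (0.20, adjusted p = 0.12).

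Acriflavine and valproate arrays, which both had TGFb1, were also set against each other. Of the glycolysis genes 4 were higher with acriflavine and 8 with valproate, and of the other targets 2 were higher with acriflavine and 6 with valproate, with medians of 0.00 and -0.47, against 51.5% called (28.3% rose and 23.3% fell) and a median of 0.04 over all genes. ANGPTL4 was 10.6-fold lower with acriflavine, MXI1 3.13-fold (adjusted p = 9.61e-07), PDK1 2.37-fold (adjusted p = 8.16e-05) and BNIP3L 2.05-fold (adjusted p = 8.63e-05). ADM was 2.46-fold higher with acriflavine (adjusted p = 0.000473). HK1 (-0.20 ± 0.121, adjusted p = 0.182), ENO2 (-0.15 ± 0.0959, adjusted p = 0.207) and NDRG1 (-0.14 ± 0.126, adjusted p = 0.39), which rose with both compounds, did not pass here.

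Against control, which leaves the TGFb1 arrays out, acriflavine arrays had 10 glycolysis genes higher, 4 lower and 7 that did not pass, with a median of 0.22, where 47.7% of all genes were called (26.1% rose and 21.6% fell) and their median was 0.04. Of the other targets 3 were higher and 4 lower, with a median of -0.06. ALDOA (0.27), PGAM1 (0.31), PGK1 (0.27), PKM (0.67) and LDHA (0.33) were among the enzymes that rose in this comparison, while ENO1 fell by 0.73 and HK2 by 1.54. MXI1 fell by 1.34, BNIP3L by 1.20 and VEGFA by 0.80. Valproate arrays had 10 glycolysis genes higher and 2 lower than control, with a median of 0.26, and 3 other targets higher and 1 lower, with a median of 0.11, where 36.7% of all genes were called (16.9% rose and 19.8% fell) and their median was -0.02. In them ANGPTL4 was 13.5-fold above control, HK1 was 2.14-fold above it and ADM 2.02-fold below it.

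Other genes of these pathways were read from lists of known members, chosen with earlier results of these data known. Of 18 further genes of glucose and glycogen metabolism tested, 5 rose and 0 fell with TGFb1, 3 rose and 5 fell with acriflavine, and 3 rose and 3 fell with valproate, with medians of 0.07, -0.06 and 0.10. These are 27.8%, 44.4% and 33.3% called, against 18.4%, 43.6% and 31.3% of all genes tested. BPGM, which makes the allosteric ligand bisphosphoglycerate, rose by 2.46 ± 0.111 with TGFb1 (adjusted p = 5.29e-09), fell by 1.83 ± 0.119 with acriflavine (adjusted p = 9.58e-08) and rose by 0.58 with valproate. PCK2, the mitochondrial enzyme that makes phosphoenolpyruvate, fell by 2.77 with acriflavine, and HKDC1, a relative of the hexokinases, fell by 2.33. Of 40 further HIF targets tested, 6 rose and 6 fell with TGFb1, 10 rose and 12 fell with acriflavine, and 7 rose and 1 fell with valproate, with medians of 0.01, -0.04 and 0.05. Here 30%, 55% and 20% were called against the same shares of all genes. With acriflavine DDIT4, an inhibitor of mTOR signalling, fell 11.3-fold, HMOX1, heme oxygenase, fell by 2.85, and VLDLR, a lipoprotein receptor, fell by 2.01. These were named for the size of their change and do not stand for the list, in which the highest change with acriflavine was 1.39.

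The sensors and subunits of the HIF system were read beside their targets. HIF1A, the alpha subunit that is known to be controlled mainly as protein, did not pass in any of the 6 comparisons, with group means of 11.9, 11.8, 11.8 and 11.9 in control, TGFb1, acriflavine and valproate arrays. EPAS1, the HIF-2 alpha subunit, rose by 0.82 with TGFb1 and fell by 1.16 with acriflavine, and ARNT2, a relative of the partner subunit, fell by 1.52 with TGFb1. With acriflavine VHL fell by 0.57 and ARNT, the partner subunit, by 0.46. Of 7 such genes tested, 1 rose and 1 fell with TGFb1, 0 rose and 3 fell with acriflavine, and 1 rose and 1 fell with valproate, with medians of 0.02, -0.21 and 0.03. These shares of 28.6%, 42.9% and 28.6% stand beside 18.4%, 43.6% and 31.3% of all genes, so the last 2 were near or below the background.

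The keratins moved in the same comparisons. KRT19 fell by 0.84, KRT18 by 0.62 and KRT8 by 0.57 with TGFb1, and KRT7, KRT8 and KRT19 rose with acriflavine by 0.67, 0.57 and 0.81. KRT7 rose by 1.37 with valproate. The calls of KRT19 with TGFb1 were lost without any 1 of 10 arrays (adjusted p up to 0.109) and with acriflavine without any 1 of 5 (up to 0.0995), and those of KRT8 without any 1 of 4 arrays and without acriflavine replicate 2 (up to 0.0648 and 0.0529). Among the 8 tested markers of other cell types, 3 rose and 1 fell with TGFb1. Against TGFb1 alone 1 rose and 2 fell with acriflavine, and 4 rose and 0 fell with valproate. Over all genes tested 18.4%, 43.6% and 31.3% were called, and of the 4 keratins 75%, 75% and 25%. ESAM and the leukocyte marker LAPTM5 passed the brightness limit only through the groups where they were high. ESAM averaged 6.86 in control arrays, and LAPTM5 averaged 6.56 in control and 6.38 in acriflavine arrays, under the lowest mean tested of 6.89. With valproate against TGFb1 alone THY1 rose by 1.40, ESAM by 1.01, RBP4 by 0.76 and CD68 by 0.45. ESAM lost its call without valproate replicate 2 (adjusted p = 0.0604), CD68 without any 1 valproate array (up to 0.0672) and RBP4 without any 1 of 7 arrays (up to 0.109). The part of these changes in the results for the members was not tested.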

How the data were processed

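Gene expression was measured on Affymetrix 3-prime arrays from 200 ng of RNA in 14 samples. The authors deposited RMA values on the log2 scale, computed with affy 1.44.0 per the submitters' processing notes. RMA corrects background, normalises arrays by quantiles and summarises probes by median polish, and the sources used here do not say which arrays entered it together. Among 49193 probe sets, 44898 named 1 gene, 1825 several and 2470 none here. Gene identifiers matched a RefSeq table for 44871 probe sets, which changed 0 symbols. Of 110 member probe sets, 25 members had several and 8 had 1.

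Of 18129 genes, 7252 (the dimmest 40% by their mean over the 14 arrays) were not tested. limma 3.58.1 (lmFit, eBayes; R 4.3.3) fitted 1 mean per group to all arrays, and p-values of 6 comparisons were adjusted by Benjamini-Hochberg over 10877 genes. The script was tested on simulated data. Precision is limited by the number of arrays. The members and lists were chosen with earlier results of these data known. Members given in every array were those called with a change of at least 1 in a main comparison, plus SLC2A1, HK2, GAPDH, PGK1, LDHA, PDK1, VEGFA and ERO1A; ENO1 and ADM, and the promoters printed, were added after their values were seen. From each further list up to 3 genes called with the largest change were named, plus HIF1A, and the keratins and some called genes of the oxygen-sensing list were added after their values were seen.

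Replicate numbers were checked for pairing, looked for as deviations from the group means that correlated above 0.1 across genes in every replicate. This was so between control and TGFb1 (0.387, 0.359, 0.543 and 0.705), but not with replicates 1 to 3 by themselves (-0.258, 0.151 and 0.589). It was so in no other comparison. The main fit used no pairs in any comparison, and the replicate number as a block was only an alternative. Alternatives were other brightness limits, probe set choices, scalings and variance models, 2 groups alone, the replicate block, a batch term for the replicates 4, stricter thresholds and arrays left out. Figures used Python 3.11.15 and matplotlib 3.10.9.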

Additional observations from a re-analysis of the deposited data

Results flagged for a closer look

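In 10 of 70 groups of 4 arrays, 1 array lay farther from the other 3 than the 95% critical value of Dixon's test allows, where chance gives about 1 in 20 groups. Control replicate 4 was such an array for 5 members and TGFb1 replicate 4 for 1. In control replicate 4, SLC2A1 was lowest at 9.66 (next 9.95), PKM lowest at 12.7 (next 13.3), ADM lowest at 12.8 (next 13.5), PFKM highest at 9.59 (next 9.20) and ANKRD37 highest at 7.96 (next 7.78). ADM was also lowest in TGFb1 replicate 4, at 12.02 (next 12.87). TGFb1 replicate 2 was highest for GPI, at 11.8 (next 11.3), and for TPI1, at 13.12 (next 13.01). Control replicate 2 was lowest for CA12, at 6.04 (next 6.38), and for KDM3A, at 10.1 (next 10.3).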

How the results depend on the processing

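Over 30 alternative settings, 0 of 104 called pairs of member and comparison turned their sign, and 71 kept their call in every setting other than the stricter threshold and the minimum fold. The counts of members called were 17, 18 and 12 for TGFb1 against control and for acriflavine and valproate against TGFb1, 21 and 16 for acriflavine and valproate against control, and 20 for acriflavine against valproate. Fitting the 2 groups alone gave 5 for TGFb1 against control and 7 for valproate against TGFb1. An adjusted p of 0.01 gave 6 and 7 for these comparisons and 12 for acriflavine against valproate. A minimum of 2-fold left 2, 4, 0, 5, 7 and 6 in the order above; these 2 settings are stricter by construction, and the cause of the others was not tested. Leaving out 1 array gave 7 to 15, 17 to 21, 7 to 13, 19 to 24, 13 to 18 and 14 to 21. With the replicate number as a block the counts were 19, 20, 12, 22, 18 and 20, and over all genes the TGFb1 comparison gave 3148 calls in place of 1997, all 1997 of them shared; HK2 (-0.80, adjusted p = 0.0209) and PFKFB4 (0.47, adjusted p = 0.0411) were the members that gained a call in this comparison. The other counts of members stayed within 1.5 times. The number of arrays, 3 or 4 a group, and the brightness of a probe set, as for PFKFB4 and CA12, limit the precision.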

Other observations

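The fate of pyruvate beyond lactate was read from further lists. Of 10 genes of the pyruvate dehydrogenase complex, its kinases and phosphatases and the pyruvate carrier, 0 rose and 2 fell with TGFb1, 5 rose and 1 fell with acriflavine, and 1 rose and 2 fell with valproate, with medians of -0.13, 0.28 and 0.12. These are 20%, 60% and 30% called, against 18.4%, 43.6% and 31.3% of all genes tested. MPC1, a subunit of the mitochondrial pyruvate carrier, fell by 0.60 ± 0.149 with TGFb1 (limma, adjusted p = 0.0125) and rose by 0.98 ± 0.161 with valproate against TGFb1 alone (adjusted p = 0.000423). PDP1, the phosphatase that reactivates the dehydrogenase, rose by 0.91 ± 0.169 with acriflavine (adjusted p = 0.000647), and PDHX, a structural component of the complex, rose by 0.79 ± 0.13 (adjusted p = 0.000251). In the same comparison PDK1, the kinase that acts against PDP1, fell by 0.85.

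Of 7 genes of the pentose phosphate route, which draws glucose phosphate towards NADPH and ribose, 0 rose and 1 fell with TGFb1, 1 rose and 2 fell with acriflavine, and 1 rose and 0 fell with valproate. The shares called of 14.3%, 42.9% and 14.3% were at or below those of all genes. PGD, which makes NADPH and pentose, rose by 0.91 ± 0.144 with acriflavine (adjusted p = 0.000185). TALDO1, transaldolase, fell by 0.35 ± 0.0694 in that comparison (adjusted p = 0.00104). H6PD, the dehydrogenase of the endoplasmic reticulum, fell by 0.56 ± 0.167 with acriflavine (adjusted p = 0.0141), which was lost without acriflavine replicate 3 (adjusted p = 0.0636).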
